A study of Mus musculus with 17 samples.

Results

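Keratin filaments, cell junctions and apical polarity complexes hold epithelial cells together, and 47 mouse genes that encode or regulate them were followed here through early liver tumour cells, normal liver cells and Kupffer cells. The genes were chosen by symbol: 6 keratins, 3 adherens junction genes, 8 claudins, 6 other tight junction membrane proteins, 7 tight junction scaffold and polarity genes, 7 desmosome genes, 5 epithelial regulators, 3 genes of the matriptase system and 2 connexins. Of these, 44 had a row among the 17140 genes of the early tumour and normal liver tables, and 46 had one among the 18185 genes of the Kupffer cell table. Cldn1, Cldn7 and Dsc2 had no row in the liver tables, and Vsig1 had none in the Kupffer table.

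Bulk polyA RNA-seq was done on 17 mouse libraries in 5 groups. Early hepatocellular carcinoma (HCC) cells came from mice given diethylnitrosamine (DEN), a chemical liver carcinogen, and were either Mef2d KO (3 libraries) or Mef2d WT (3 libraries), Mef2d being a MADS-box transcription factor gene. Normal liver cells (genotype given as Normal) made up 3 libraries. Kupffer cells, macrophages that live in liver sinusoids, came as KC2 (4 libraries) and KC1 (4 libraries) from DEN-induced murine PME. The early HCC and Kupffer groups are thus all labelled DEN-induced. The labels do not spell out PME, the allele, the cells in which Mef2d was lost or how KC1 and KC2 were separated. Nor do they give the ages or say whether replicates were separate animals. The p-values thus weigh a difference between groups only against the spread among these libraries within a group, which may be a technical spread. The series' design text names Mef2d KO against WT early HCC cells and the KC2 and KC1 cells, and a deposited table sets early HCC beside normal liver.

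Keratins of simple epithelia assemble as pairs of a type II chain such as Krt8 and a type I chain such as Krt18, and desmosomes tie these filaments to the membrane through desmoplakin (Dsp). Tight junctions seal the space between cells with claudins and occludin, which bind scaffolds such as ZO-1 (Tjp1), while Par and Crumbs proteins set the apical side. In liver, hepatocytes make Krt8 and Krt18 alone, bile duct cells add Krt7 and Krt19, and hepatocytes join by both E-cadherin (Cdh1) and N-cadherin (Cdh2). Zeb and Snai family repressors are known to switch many of these genes off by binding E-box sequences near their start sites.

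The promoters of 4 members whose RNA differed between KO and WT cells show such E-boxes and are given here. Each runs from 250 bases before to 50 bases after the RefSeq start site (GRCm38.p6), 5′ to 3′ on the gene's strand, with CACCTG or its reverse complement CAGGTG in capitals. Krt8 lies at chr15:102004293-102004592 on the minus strand, Krt18 at chr15:102027966-102028265 on the plus strand, Cldn4 at chr5:134946885-134947184 on the minus strand, and Dsp at chr13:38151044-38151343 on the plus strand.
Krt8: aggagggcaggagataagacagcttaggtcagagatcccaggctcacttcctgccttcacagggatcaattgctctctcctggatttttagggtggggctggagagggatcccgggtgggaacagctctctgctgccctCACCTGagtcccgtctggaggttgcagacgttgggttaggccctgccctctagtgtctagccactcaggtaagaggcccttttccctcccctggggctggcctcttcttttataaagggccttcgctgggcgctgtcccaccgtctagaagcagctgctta
Krt18: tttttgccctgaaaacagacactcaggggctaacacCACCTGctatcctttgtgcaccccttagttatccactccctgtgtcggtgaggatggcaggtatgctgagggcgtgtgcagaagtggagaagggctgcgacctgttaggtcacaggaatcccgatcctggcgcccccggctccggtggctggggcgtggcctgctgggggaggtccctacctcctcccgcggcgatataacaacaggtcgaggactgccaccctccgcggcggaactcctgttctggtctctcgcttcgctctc
Cldn4: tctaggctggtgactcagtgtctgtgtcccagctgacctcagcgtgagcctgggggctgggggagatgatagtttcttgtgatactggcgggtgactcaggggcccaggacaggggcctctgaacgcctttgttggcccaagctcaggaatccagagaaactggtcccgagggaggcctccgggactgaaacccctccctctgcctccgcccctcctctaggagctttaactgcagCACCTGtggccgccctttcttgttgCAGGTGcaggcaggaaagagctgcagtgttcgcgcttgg
Dsp: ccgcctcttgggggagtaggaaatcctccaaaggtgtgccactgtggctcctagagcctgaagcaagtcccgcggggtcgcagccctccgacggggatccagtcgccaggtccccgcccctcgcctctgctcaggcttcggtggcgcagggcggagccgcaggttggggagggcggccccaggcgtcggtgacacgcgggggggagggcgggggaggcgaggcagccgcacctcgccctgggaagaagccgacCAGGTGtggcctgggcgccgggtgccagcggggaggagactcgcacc
With the start site counted as 0, the E-box began at -111 in Krt8, at -214 in Krt18 and at 3 in Dsp, and Cldn4 held 2, at -14 and 11. Promoters were at hand for 30 of the 47 members, and CACCTG, read on both strands, was in 19 of them (63.3%), against 5413 of all 27025 promoters, or 20%. The members' promoters were also richer in G and C (median 61.2%, against 52.7% over all), and the part of base composition in that share was not tested. The GC box GGGCGG, which can share an end base with CACCTG, was in 20 of the 30 (66.7%) and in 35.9% of all. AACCGGTT, the core bound by Grhl factors, was in 0 of the 30 and 0.152% of all. A MEF2 consensus site was in 2 of the 30 (6.67%, Cldn1 and Vsig1) and 3.26% of all. A match in these letters is a description of the sequence and says nothing of binding.

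Depth was even: 16604606 to 17683298 expected counts per early HCC library, 18467849 to 18637765 per normal liver library and 15353249 to 16743459 per Kupffer library. Levels below are CPM, read counts scaled to a library's size, after TMM scaling, over the 9 early HCC and normal libraries together and over the 8 Kupffer libraries separately, so a level is not comparable between these 2 sets. Mef2d itself stood at 68.9, 63.6 and 65.8 CPM in the KO libraries, against 98.9, 97.5 and 103 CPM in the WT libraries (log2 fold change -0.60 ± 0.04, SE, adjusted p = 7.17e-09), so the libraries labelled KO still held Mef2d reads, and the labels do not say which exons were removed. In 2 hepatocyte markers the libraries labelled normal liver went against a plain hepatocyte profile: albumin (Alb) averaged 2.41 CPM and Apoa1 0.936 CPM. The other hepatocyte markers with a row together held most of that list's sum in these libraries, given below. The bile duct keratins Krt7 and Krt19 averaged 411 and 1085 CPM in normal liver. Summed over Epcam, Sox9, Spp1 and Cftr, the cholangiocyte markers that are no members did not follow those keratins. The sum was 1719 to 1780.1 CPM in KO and 1309 to 1403 CPM in WT libraries, against 214 to 221 CPM in normal liver libraries. Epcam had no count in normal liver. The single markers were divided: of the 3 tested, 2 were higher and 1 lower than in normal liver, in KO as in WT cells. Over 7 hepatocyte markers with a row, the summed level was 0.746 to 1.02 CPM in KO and 0.413 to 1.12 CPM in WT early HCC libraries, against 128 to 138 CPM in normal liver libraries. In bulk RNA, fewer cells of a type and less RNA per cell cannot be told apart.

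**Figure D1:**
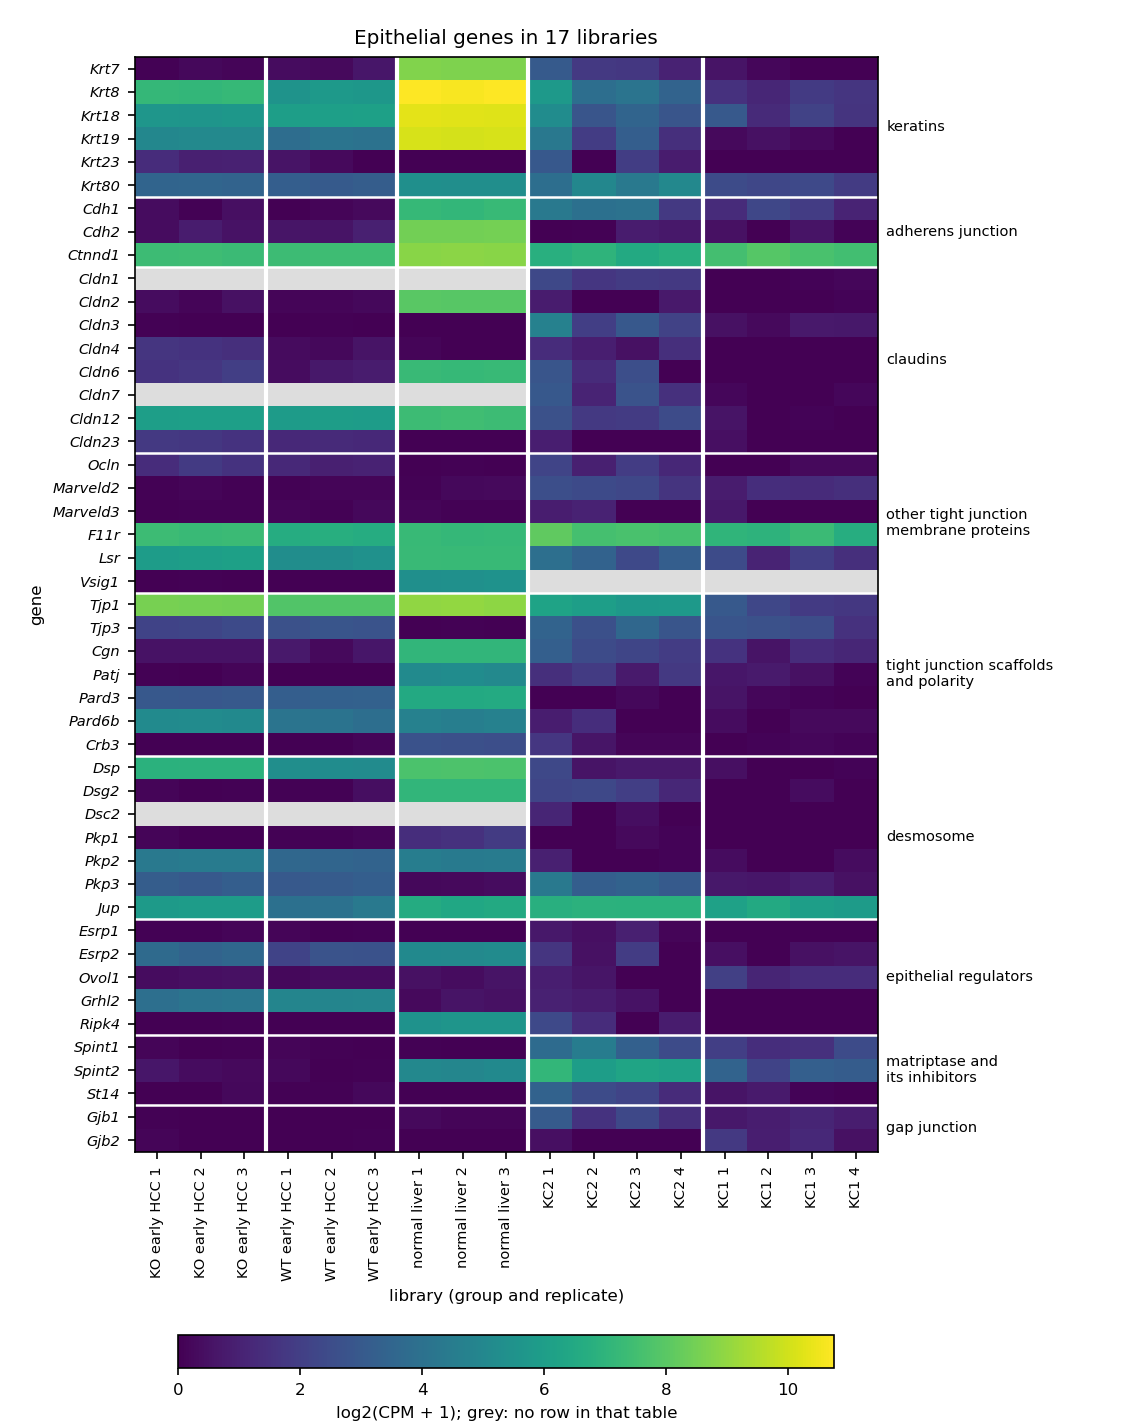
Heat map of log2(CPM + 1) for the 47 genes (rows, grouped by role) in the 17 libraries (columns, in the order KO, WT, normal liver, KC2, KC1); grey marks a gene with no row in that table. Krt7, Krt8, Krt18, Krt19, Cdh1 and Cdh2 are brightest in normal liver, and the 4 KC2 columns are brighter than the 4 KC1 columns for most genes.

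The sum over all members was 1340.3 to 1347 CPM in KO libraries, 862 to 892 CPM in WT libraries and 7598 to 7784 CPM in normal liver libraries, with no overlap between the groups. Levels per kilobase (kb) were taken over all annotated exons of a gene joined together, so ranks between genes depend on the annotation. On this scale Krt8 led in KO cells at 73.1 CPM per kb, followed by the junctional adhesion molecule F11r at 60.0 and Tjp1 at 46.6. In WT cells Krt18 led at 46.3 CPM per kb, ahead of F11r at 38.4, Tjp1 at 29.2 and Krt8 at 25.4. In normal liver the keratins Krt8, Krt18 and Krt19 stood far above the junction genes, at 861, 859 and 585 CPM per kb, with Cldn6 next at 87.6. The keratins Krt7 at 58.3 and Krt80 at 6.11 CPM per kb were below Cldn6, and Krt23 had no count. The leading junction genes of early HCC cells, F11r and Tjp1, were thus within reach of the leading keratins in level, which was not so in normal liver.

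Most of the tested epithelial genes were higher in Mef2d KO than in WT early HCC cells, among them the keratin Krt8 and the desmosome genes Jup and Dsp. Of 23 members that passed the filter on low counts, 16 rose, 4 fell and 3 did not pass the test (edgeR's quasi-likelihood test, Benjamini-Hochberg adjusted p under 0.05 over 12093 genes). The background was high, since 64.5% of all genes tested passed, 32.3% in the higher and 32.2% in the lower direction. At least 2-fold changes were rarer: 9 members rose that far and 0 fell that far, beside 7.66% of all genes, 3.62% higher and 4.04% lower. Among the 9, Krt23, Cldn4 and Cldn6 averaged 0.232, 0.302 and 0.564 CPM in WT cells. They passed the filter through KO cells alone, which fixed their direction. Groups that did not overlap in CPM covered 68.5% of all genes tested. The median log2 fold change of the 23 was 0.70, against -0.00 over all genes tested. The other 21 members with a row averaged at most 0.495 CPM in KO cells and 0.661 CPM in WT cells and were not tested. Marker sums of other cells moved in the same comparison, and the sum of Epcam, Sox9, Spp1 and Cftr given above was higher in KO libraries. Macrophage markers summed to 18.7 to 18.8 CPM in KO and 8.09 to 8.89 CPM in WT libraries, with 4 markers present and 1 tested. Stellate cell markers summed to 7.35 to 9.10 CPM in KO and 10.7 to 15.5 CPM in WT libraries, with 4 present, 2 tested and 1 called lower. Their part in the members' differences was not tested.

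**Figure D2:**
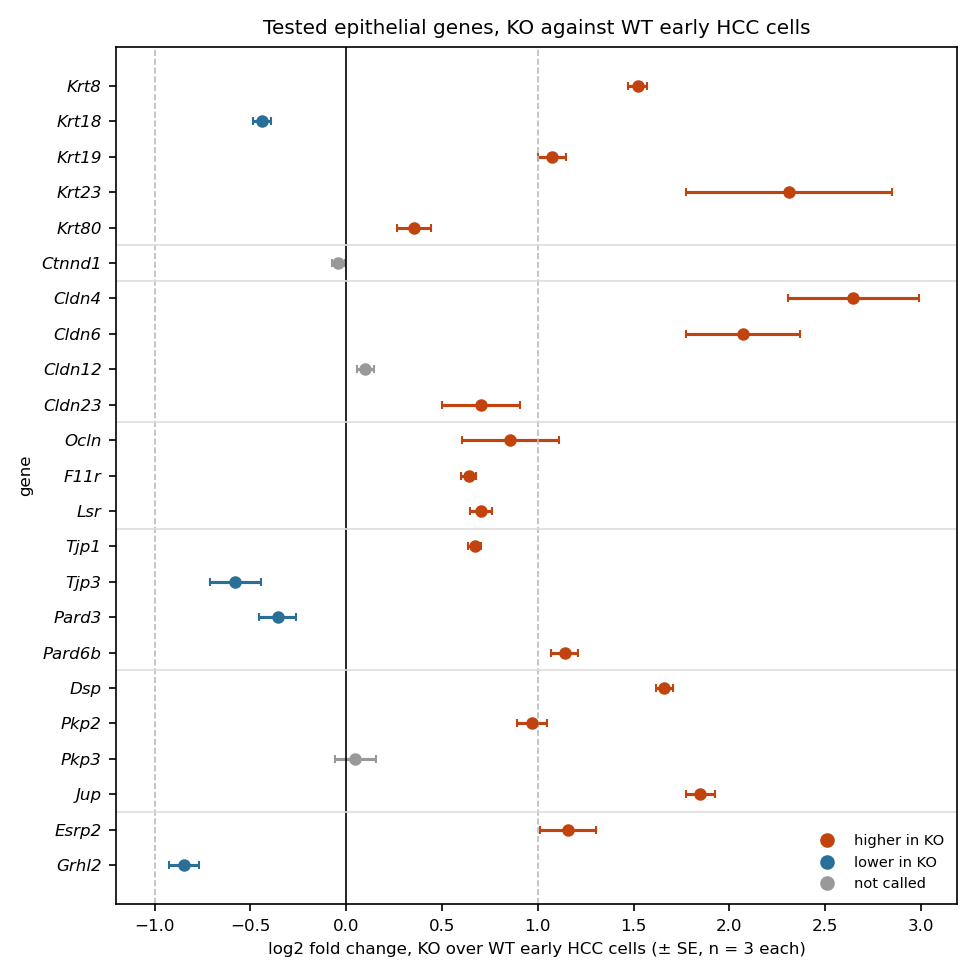
Log2 fold change, KO over WT early HCC cells, for the 23 tested members, with bars of 1 SE and dashed lines at a 2-fold change. 9 genes lie beyond the line on the higher side, from Krt19 at 1.08 to Cldn4 at 2.65, and none lies beyond it on the lower side.

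Among the keratins the type II chain Krt8 and the type I chain Krt18 moved apart. Krt8 (gene 16691, chr15:101996711-102004342) measured 144, 140.3 and 145 CPM in KO libraries, against 45.0, 53.4 and 50.6 CPM in WT libraries. Every KO library was above every WT library, and the log2 fold change was 1.52 ± 0.05 (SE, adjusted p = 9.53e-13). Krt18 (gene 16668, chr15:102028216-102032026), its neighbour on chromosome 15 and usual partner, measured 49.2, 47.2 and 51.2 CPM in KO libraries, against 65.2, 66.5 and 67.7 CPM in WT libraries. It was lower in all 3 KO libraries (log2 fold change -0.44 ± 0.04, adjusted p = 4.24e-07).

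The ratio of Krt8 to Krt18, both per kilobase, was 2.15, 2.18 and 2.08 in KO libraries, 0.507, 0.589 and 0.548 in WT libraries, and 1.01, 0.968 and 1.03 in normal liver libraries. Krt8 was thus in excess in KO cells and Krt18 in WT cells, and these chains were nearly level in normal liver. With Krt19 added to Krt18 as a type I partner, the ratio was 1.39 to 1.44 in KO, 0.436 to 0.495 in WT and 0.579 to 0.608 in normal liver libraries, so the order of the groups held while Krt8 was no longer level with its partners in normal liver. This ratio was looked at after the values were seen. It differed 3.91-fold between KO and WT cells, with a 2-sided exact permutation p = 0.1, which is the smallest that 3 against 3 libraries allow. How RSEM shared reads between Krt8, Krt18 and their processed copies is not given in the sources used here, and this touches the levels of both genes.

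**Figure D3:**
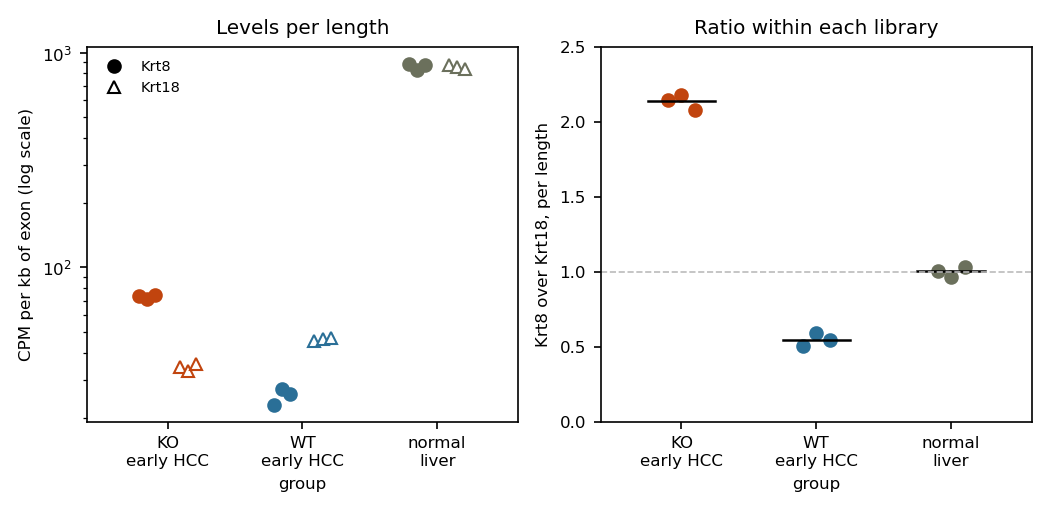
Krt8 and Krt18 levels (CPM per kilobase of exon, log axis) and the ratio of Krt8 to Krt18, by library, in KO and WT early HCC cells and normal liver. The ratio stands at 2.08 to 2.18 in KO, 0.507 to 0.589 in WT and 0.968 to 1.03 in normal liver libraries.

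Krt19 (gene 16669, chr11:100140810-100145926), the smallest type I keratin and a bile duct and progenitor marker, measured 30.9, 32.7 and 32.6 CPM in KO libraries, against 13.5, 16.4 and 15.5 CPM in WT libraries (log2 fold change 1.08 ± 0.07, adjusted p = 4.24e-09). Krt23, another type I keratin, was near the detection limit, at 1.61, 0.918 and 0.961 CPM in KO libraries, against 0.472, 0.224 and 0 CPM in WT libraries. Its log2 fold change of 2.31 ± 0.54 (adjusted p = 0.00142) became 3.29 without WT replicate 1, the highest WT library. Krt80, a type II keratin, averaged 10.1 ± 0.307 CPM in KO cells and 7.89 ± 0.448 CPM in WT cells (SD, n = 3 each), a smaller rise of 0.35 ± 0.09 in log2. In all, 4 of the 5 tested keratins rose and Krt18 fell. Krt7, the second bile duct keratin, was too low to be tested in the fit of KO and WT libraries alone, with 0.0575 to 0.172 CPM in the KO libraries and 0.224 to 0.558 CPM in the WT libraries.

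Of 4 tested desmosome genes 3 rose. Desmoplakin (Dsp, gene 109620, chr13:38151294-38198577), which links keratin filaments to the desmosomal plaque, measured 115, 120.3 and 119 CPM in KO libraries, against 39.2, 36.8 and 35.9 CPM in WT libraries (log2 fold change 1.66 ± 0.04, adjusted p = 9.52e-14). Plakoglobin (Jup, gene 16480, chr11:100368856-100397839), the armadillo protein shared by desmosomes and adherens junctions, measured 57.7, 60.0 and 61.5 CPM in KO libraries, against 14.9, 15.3 and 19.4 CPM in WT libraries (log2 fold change 1.85 ± 0.08, adjusted p = 1.02e-11). Both genes were above every WT library in every KO library. The plaque protein Pkp2 averaged 20.5 ± 0.821 CPM in KO cells and 10.5 ± 0.755 CPM in WT cells (log2 fold change 0.97 ± 0.08, adjusted p = 2.23e-08). Pkp3, of the same family, gave 7.84 ± 0.638 CPM in KO cells and 7.56 ± 0.620 CPM in WT cells and did not pass the test (log2 fold change 0.05 ± 0.11, adjusted p = 0.706). The desmosomal cadherin Dsg2 was close to 0 in both, at 0.0572 ± 0.0575 CPM in KO cells and 0.150 ± 0.160 CPM in WT cells, and was not tested. All 4 tested desmosome genes encode plaque proteins, so these calls say nothing of the desmosomal cadherins.

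Of the tested tight junction membrane proteins, Cldn4 and Cldn6 had the largest fold changes, at a few CPM. Cldn4 (gene 12740, chr5:134945123-134946934), a barrier-forming claudin, measured 2.18, 1.95 and 1.70 CPM in KO libraries, against 0.236, 0.168 and 0.502 CPM in WT libraries (log2 fold change 2.65 ± 0.34, adjusted p = 5.4e-06). Cldn6, a claudin of embryonic epithelia, measured 2.01, 2.30 and 2.94 CPM in KO libraries, against 0.295, 0.615 and 0.781 CPM in WT libraries (log2 fold change 2.07 ± 0.30, adjusted p = 1.72e-05). The groups did not overlap for either gene. Cldn12 averaged 65.4 ± 1.73 CPM in KO cells and 60.8 ± 2.16 CPM in WT cells and missed the threshold (log2 fold change 0.10 ± 0.04, adjusted p = 0.0541). Among the other membrane proteins, F11r averaged 159.8 ± 4.55 CPM in KO cells and 102 ± 3.22 CPM in WT cells, and Lsr, the angulin that draws tricellulin to 3-cell corners, averaged 64.3 ± 4.44 CPM in KO cells and 39.3 ± 2.29 CPM in WT cells. Both rose, by 0.64 ± 0.04 and 0.70 ± 0.06 in log2. Occludin (Ocln) and Cldn23 also passed, at 2.04 ± 0.518 CPM in KO cells and 1.12 ± 0.211 CPM in WT cells for Ocln, and at 2.27 ± 0.257 CPM in KO cells and 1.38 ± 0.0614 CPM in WT cells for Cldn23. Ocln lost its call without KO replicate 2 (adjusted p = 0.0594), and DESeq2 called neither gene (adjusted p = 0.0546 for Ocln and 0.0786 for Cldn23).

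Scaffold and polarity genes divided, with 2 of 4 tested members higher and 2 lower. Tjp1 (gene 21872, chr7:65296165-65527850), the ZO-1 scaffold that anchors claudins to actin, measured 369, 368 and 355 CPM in KO libraries, against 225, 230.0 and 229.7 CPM in WT libraries (log2 fold change 0.67 ± 0.03, adjusted p = 8.62e-11). Tjp3, the ZO-3 scaffold, ran the other way, at 3.88 ± 0.488 CPM in KO cells and 5.78 ± 0.360 CPM in WT cells (log2 fold change -0.58 ± 0.13, adjusted p = 0.00118). Within the Par complex, Pard6b measured 34.9, 35.1 and 33.3 CPM in KO libraries, against 16.8, 15.9 and 14 CPM in WT libraries (log2 fold change 1.14 ± 0.07, adjusted p = 1.26e-09). Its partner Pard3 averaged 6.82 ± 0.274 CPM in KO cells and 8.70 ± 0.450 CPM in WT cells (log2 fold change -0.36 ± 0.10, adjusted p = 0.00441), a call that DESeq2 did not make (adjusted p = 0.0708). Tjp1, Lsr and Pkp3 sit on chromosome 7, where the median log2 fold change of all 930 tested genes was 0.24, and the part of that shift in their values was not tested.

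The regulators of epithelial splicing and transcription also went in opposite directions. Esrp2, a splicing factor that sets epithelial isoforms, measured 12.2, 9.87 and 11 CPM in KO libraries, against 3.48, 5.70 and 5.52 CPM in WT libraries (log2 fold change 1.16 ± 0.14, adjusted p = 3.86e-06). Grhl2 (gene 252973, chr15:37232821-37363569), a grainyhead factor that activates junction genes in other epithelia, measured 14.1, 16.5 and 17.6 CPM in KO libraries, against 28.7, 28.5 and 29.4 CPM in WT libraries. It fell, with no overlap between the groups (log2 fold change -0.85 ± 0.08, adjusted p = 1.14e-07). The adherens junction gave no call: p120-catenin (Ctnnd1), which holds cadherins at the membrane, averaged 165 ± 4.18 CPM in KO cells and 169 ± 2.76 CPM in WT cells (log2 fold change -0.04 ± 0.03, adjusted p = 0.313). The cadherin it would bind was almost unread, with Cdh1 at 0.287, 0.0574 and 0.339 CPM in KO libraries, against 0, 0.112 and 0.223 CPM in WT libraries.

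**Figure D4:**
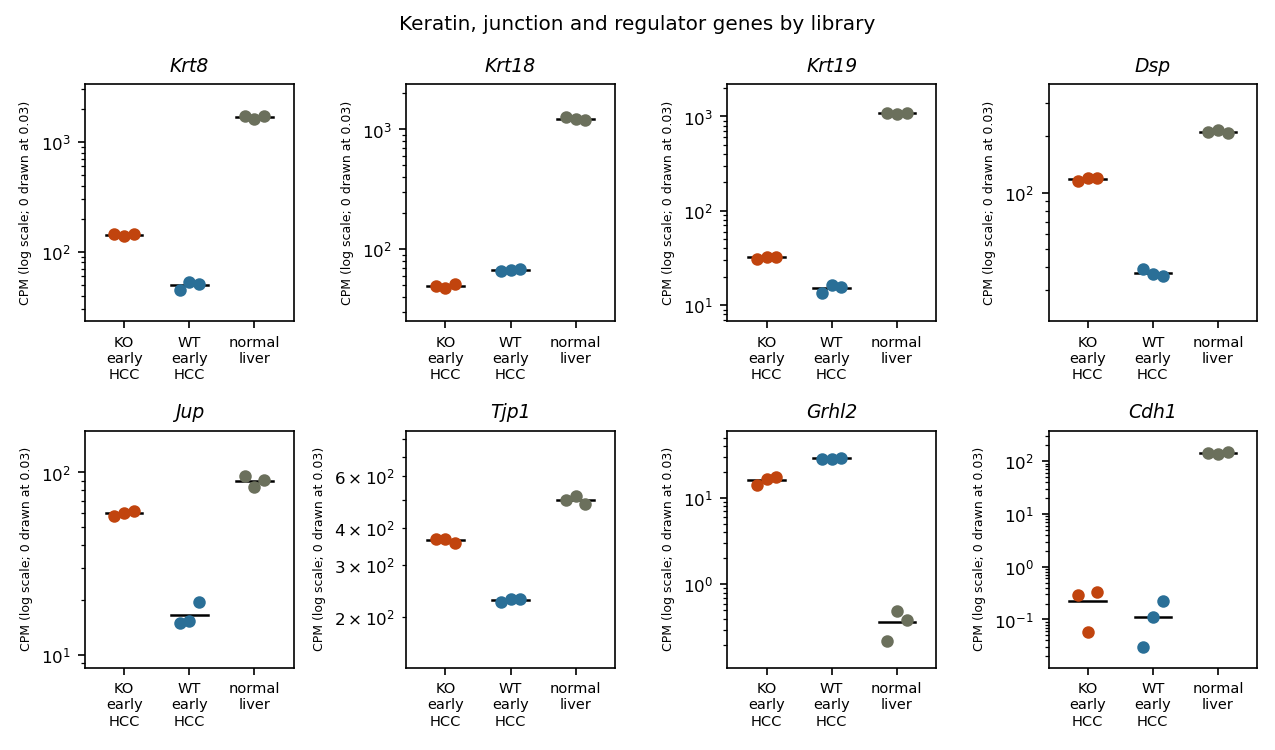
Levels of 8 members (CPM, log axis) in KO and WT early HCC cells and normal liver; dots are libraries, lines are group means, and a level of 0 is drawn at 0.03 CPM. Krt8, Krt19, Dsp, Jup and Tjp1 sit in KO cells between WT cells and normal liver, Krt18 is lowest in KO cells, Grhl2 is high in both tumour groups and near 0 in normal liver, and Cdh1 is the reverse.

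Other genes of these pathways gave a mixed count in KO against WT cells. Of the listed genes outside the 47, 2 of 3 tested keratins, 3 of 4 desmosome genes and 4 of 5 connexins rose, with none lower. Adherens junction genes split 3 higher and 1 lower of 7, polarity genes 7 higher and 3 lower of 13, and tight junction genes 2 higher and 5 lower of 9. Epcam, an epithelial adhesion molecule, averaged 36.3 ± 1.29 CPM in KO cells and 15.3 ± 0.626 CPM in WT cells (log2 fold change 1.24 ± 0.06), and Perp, a desmosome-associated protein, averaged 38.8 ± 2.59 CPM in KO cells and 14.1 ± 0.542 CPM in WT cells (log2 fold change 1.45 ± 0.07). Among repressors of epithelial genes, Twist1 and Zeb1 fell (log2 fold changes -0.99 ± 0.06 and -0.49 ± 0.06) while Snai1 and Zeb2 rose by 0.27 ± 0.08 and 0.19 ± 0.05. Mesenchymal genes split 2 higher and 2 lower of 5 tested, with Fn1 (fibronectin) at 2489 ± 52.7 CPM in KO cells and 1098 ± 45.5 CPM in WT cells and Sparc at 59.2 ± 2.15 CPM in KO cells and 129 ± 4.50 CPM in WT cells.

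Set against normal liver, WT early HCC cells held far less RNA of most epithelial members, with no read at all for Patj, Vsig1 and Ripk4, while 5 members were higher. Of 33 tested members 28 were lower and 5 higher, and 26 were lower and 5 higher by at least 2-fold. All 33 passed where 87.2% of all 12697 genes tested did, 43.3% lower and 43.9% higher, so the count of calls is near the background. The median log2 fold change was -3.40, against 0.01 over all genes. Members near 0 in 1 group passed the filter on low counts through the other group alone, which fixed their direction. Among the lower these were Krt7, Cdh1, Cdh2, Cldn2, Cldn6, Vsig1, Cgn, Patj, Crb3, Dsg2, Pkp1, Ripk4 and Spint2. All 5 higher members passed through WT cells alone. The median includes all of these. At least 2-fold differences covered 41.0% of all genes, 20.7% lower and 20.3% higher, and groups did not overlap for 87.4%. The liver tables list only genes with a count in KO or WT libraries, so a member present in normal liver alone would not appear.

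All 5 tested keratins were lower in WT early HCC cells. Krt8 averaged 49.7 ± 4.27 CPM in WT cells and 1686 ± 56.3 CPM in normal liver, where the libraries read 1731, 1623 and 1705 CPM (log2 fold change -5.07 ± 0.05, adjusted p = 7.84e-21). Krt18 averaged 66.5 ± 1.25 CPM in WT cells and 1234 ± 24.9 CPM in normal liver, with 1260.2, 1231 and 1211 CPM in the normal libraries (log2 fold change -4.20 ± 0.04). Krt19 averaged 15.1 ± 1.47 CPM in WT cells and 1085 ± 15.5 CPM in normal liver, with 1094, 1067 and 1094 CPM in the normal libraries (log2 fold change -6.15 ± 0.05). Krt7 fell furthest of the keratins, to 0.359 ± 0.176 CPM in WT cells, against 411 ± 6.78 CPM in normal liver (log2 fold change -10.11 ± 0.09).

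Both classical cadherins were nearly unread in the tumour cells. Cdh1 (E-cadherin, gene 12550, chr8:106603350-106670247) had 6 counts over the 3 WT libraries, against 7961 over the 3 normal libraries, at 0, 0.112 and 0.223 CPM in WT and 146, 139 and 153 CPM in normal liver (log2 fold change -10.23 ± 0.15, adjusted p = 2.42e-19). Cdh2 (N-cadherin) measured 0.532, 0.503 and 0.949 CPM in WT libraries, against 352, 356 and 362 CPM in normal libraries (log2 fold change -9.04 ± 0.09). Ctnnd1, in contrast, kept a level of 167, 168 and 172 CPM in WT libraries, against 454, 467 and 462 CPM in normal libraries (log2 fold change -1.43 ± 0.04). In the fit Cdh2 thus differed by 527-fold and the cytoplasmic partner of the cadherins by 2.70-fold. Without WT replicate 3 the Cdh1 log2 fold change was -11.13, since that library held most of its few reads.

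Tight junction genes showed the same spread of sizes. Cldn2, a cation-pore claudin, measured 0.118, 0.112 and 0.167 CPM in WT libraries, against 255, 250.1 and 252 CPM in normal libraries (log2 fold change -10.81 ± 0.10), and Cldn6 averaged 0.564 ± 0.247 CPM in WT and 151 ± 5.52 CPM in normal liver. Cldn12 was 60.8 ± 2.16 CPM in WT cells and 168 ± 3.84 CPM in normal liver (log2 fold change -1.46 ± 0.04). Cingulin (Cgn), which links tight junctions to myosin, measured 0.650, 0.224 and 0.558 CPM in WT libraries and 133 CPM in each normal library (log2 fold change -8.10 ± 0.11). The Crumbs-complex scaffold Patj had no count in WT libraries, at least 607-fold lower than its 34.8, 36.6 and 32.2 CPM in normal liver with 3 counts over the group as the floor. The adhesion protein Vsig1 was likewise at 0 in WT libraries, at least 738-fold lower than in normal liver, at 40.6, 41.7 and 43.6 CPM. Milder differences were found for Tjp1, at 228 ± 2.99 CPM in WT and 498 ± 14.8 CPM in normal liver (log2 fold change -1.11 ± 0.04), Lsr at -1.95 ± 0.05, Pard3 at -3.40 ± 0.06 and F11r at -0.50 ± 0.04 in log2.

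In the desmosome, the cadherin Dsg2 fell to 0.0591, 0.0559 and 0.335 CPM in WT libraries, against 134, 135 and 135 CPM in normal libraries (log2 fold change -9.72 ± 0.13, and -11.02 without WT replicate 3). The plaque genes Dsp (37.3 ± 1.67 CPM in WT, 212 ± 4.29 CPM in normal liver) and Jup (16.5 ± 2.47 CPM in WT, 90.1 ± 6.35 CPM in normal liver) fell by 2.49 ± 0.05 and 2.43 ± 0.08 on the log2 scale. Ripk4, a kinase of epidermal differentiation, had no count in WT libraries, at least 817-fold lower than its 43.4, 48.0 and 48.0 CPM in normal liver. Spint2, the inhibitor HAI-2 of the membrane protease matriptase, measured 0.177, 0 and 0.0558 CPM in WT libraries, against 31.4, 29.5 and 33.5 CPM in normal libraries (log2 fold change -8.56 ± 0.22, and -9.80 without WT replicate 1). Esrp2 fell by 2.77 ± 0.11 on the log2 scale, to 4.90 ± 1.23 CPM in WT, against 34.1 ± 1.63 CPM in normal liver.

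The 5 members that ran the other way came from 5 different roles: Grhl2, Pkp3, Tjp3, Ocln and Cldn23. Grhl2 measured 28.7, 28.5 and 29.4 CPM in WT libraries, against 0.222, 0.497 and 0.382 CPM in normal libraries (log2 fold change 6.28 ± 0.15, adjusted p = 1.76e-16). Pkp3 averaged 7.56 ± 0.620 CPM in WT cells and 0.220 ± 0.0534 CPM in normal liver (log2 fold change 5.07 ± 0.23). Tjp3 and Ocln each had 1 count over the normal libraries, giving count ratios of 315 (95% interval 56.1 to 12484) and 60.9 (10.5 to 2447) for WT over normal liver, and Cldn23 had none, at least 25.1-fold higher in WT cells. Within 3 of these families other members fell: Pkp1 and Pkp2 beside Pkp3, Tjp1 beside Tjp3, and Cldn2, Cldn6 and Cldn12 beside Cldn23. The 2 connexins, including Gjb1, the main hepatocyte connexin, were at or below 0.222 CPM in every early HCC and normal library and were not tested.

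Of the listed repressors of epithelial genes, 4 of 7 tested were higher and 3 lower in WT cells than in normal liver. Their sum was 119 to 122 CPM in WT libraries and 106 to 116 CPM in normal liver libraries. Mesenchymal genes split 2 higher and 3 lower of 5 tested. Zeb2, Snai1 and Twist1 averaged 42.0, 13.5 and 32.5 CPM in WT early HCC cells, against 0.0917, 0.239 and 0.0553 CPM in normal liver, while Snai2 averaged 0.172 CPM in WT cells and 56.0 CPM in normal liver. Zeb1 was lower in WT cells, at 30.6 CPM, against 52.1 CPM in normal liver. In the same libraries 7 of 10 other tight junction genes were lower and 3 higher, and 9 of 14 other polarity genes were lower and 4 higher. Alpha-catenin (Ctnna1), which ties cadherins to actin, averaged 16.8 ± 1.61 CPM in WT cells and 643 ± 4.98 CPM in normal liver (log2 fold change -5.24 ± 0.05), whereas Epcam averaged 15.3 CPM in WT cells and had no count in normal liver, at least 277-fold higher in WT cells. Marker sums of other cells moved in this comparison too, beside the hepatocyte and cholangiocyte sums above. Stellate cell markers summed to 10.7 to 15.5 CPM in WT libraries and 0.655 to 0.831 CPM in normal libraries, with 2 tested and both higher. Macrophage markers summed to 8.09 to 8.89 CPM in WT libraries and 2.57 to 2.98 CPM in normal libraries, with 2 tested, 1 higher and 1 not called. Their part in the members' differences was not tested.

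KO early HCC cells also stood far below normal liver for most members, though for several the gap was small. Of 35 tested members 25 were lower, 9 higher and 1 not called, beside 87.7% of all 12657 genes tested (43.2% lower, 44.5% higher). Here too, members near 0 in 1 group passed the filter through the other group alone, which fixed their direction. Among the lower these were Krt7, Cdh1, Cdh2, Cldn2, Vsig1, Cgn, Patj, Crb3, Dsg2, Pkp1, Ripk4 and Spint2. All 7 members higher by at least 2-fold passed through KO cells alone. By at least 2-fold 22 were lower and 7 higher, beside 40.1% of all genes in either direction, 20.5% lower and 19.6% higher, and 87.9% of all genes had groups that did not overlap. This comparison shares its normal libraries with that of WT cells and its KO libraries with that against WT cells. Dsp averaged 118 ± 2.81 CPM in KO cells and 212 ± 4.29 CPM in normal liver (log2 fold change -0.83 ± 0.03), and Jup averaged 59.7 ± 1.93 CPM in KO and 90.1 ± 6.35 CPM in normal liver (-0.59 ± 0.05). Tjp1 was 364 ± 7.66 CPM in KO and 498 ± 14.8 CPM in normal liver (-0.45 ± 0.03). Pkp2 did not differ by the test, at 20.5 ± 0.821 CPM in KO and 21.1 ± 1.25 CPM in normal liver (-0.03 ± 0.07, adjusted p = 0.649). Pard6b and F11r, lower in WT cells than in normal liver, were above normal liver in KO cells by 0.47 ± 0.06 and 0.14 ± 0.04 in log2.

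Other members remained far below normal liver in KO cells. The log2 fold change of KO cells over normal liver was -3.55 ± 0.03 for Krt8, -5.07 ± 0.04 for Krt19 and -4.64 ± 0.04 for Krt18, whose value for WT cells was -4.20. Cdh1 had 12 counts over the KO libraries, against 7961 over the normal libraries (log2 fold change -9.27 ± 0.12), and Cdh2 measured 0.287, 0.746 and 0.452 CPM in KO libraries, against 352 to 362 CPM in normal libraries. Crb3, the short Crumbs protein, was at 0 in KO libraries, at least 91.6-fold lower than in normal liver, at 5.54, 5.25 and 4.92 CPM. Krt23 and Cldn23 were at least 21.1-fold and 41.1-fold higher in KO cells than in normal liver, where neither had a count, and Cldn4 had a count ratio of 52.9 (95% interval 14.3 to 443) for KO over normal liver. Cdh1, Cdh2, Dsg2 and Cgn were thus under 1 CPM in both tumour groups, while Krt8, Dsp, Jup and Tjp1 differed between them.

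In Kupffer cells nearly all tested epithelial members were higher in KC2 than in KC1, by 20-fold or more for some that were near 0 in KC1. Of 27 tested members 24 were higher, 2 lower and 1 not called (edgeR's quasi-likelihood test, adjusted p under 0.05), where 59.8% of all 12774 genes tested passed, 31.9% higher and 27.9% lower. By at least 2-fold 22 members were higher, beside 36.7% of all genes in either direction and 22.1% higher, and 22 members had groups that did not overlap, beside 56.8% of all genes. The median log2 fold change of the 27 was 2.65, against 0.03 over all genes. The members at 20-fold or more were Krt7, Krt19, Cldn1, Cldn3, Cldn7, Cldn12, Ocln and Dsg2. They passed the filter on low counts through KC2 alone, which fixed their direction. Pkp3, St14 and Patj also passed through KC2 alone. Gjb1 and Cgn would not have passed on their KC1 libraries alone. The median includes all of these. A further 19 members with a row had too few counts to be tested.

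Marker sums of other cells differed too, though not all in the same direction. Summed cholangiocyte markers that are no members (Epcam, Sox9, Spp1 and Cftr) read 763, 266, 433 and 157 CPM in the 4 KC2 libraries, against 9.90, 14.4, 7.10 and 16.5 CPM in the 4 KC1 libraries, and all 3 that could be tested were higher. Liver endothelial markers summed to 6175 to 9082 CPM in KC2, against 348 to 487 CPM in KC1. Hepatocyte markers summed to 152 to 227 CPM in KC2, against 49.4 to 86.6 CPM in KC1, with 4 of 8 higher and 4 not called. Stellate cell markers overlapped, at 16.9 to 27.2 CPM in KC2 and 19.1 to 43.8 CPM in KC1. Of 6 tested stellate markers, 1 was higher, 1 lower and 4 not called. Leukocyte and lymphocyte markers summed to 496 to 611 CPM in KC2, against 378 to 461 CPM in KC1, and 4 of 5 were higher. Macrophage markers summed to 1131, 6857, 7160.2 and 7938 CPM in KC2, against 21310 to 29921 CPM in KC1, and 5 of 8 were lower. Epcam was at 0 in every KC1 library. The part of these other cell types in the members' differences was not tested. KC2 replicate 1 also stood apart from the other KC2 libraries (chi-square per degree of freedom 138 to 178 against it, 24.2 to 39.8 among the other 3), so values without it are given below.

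**Figure D5:**
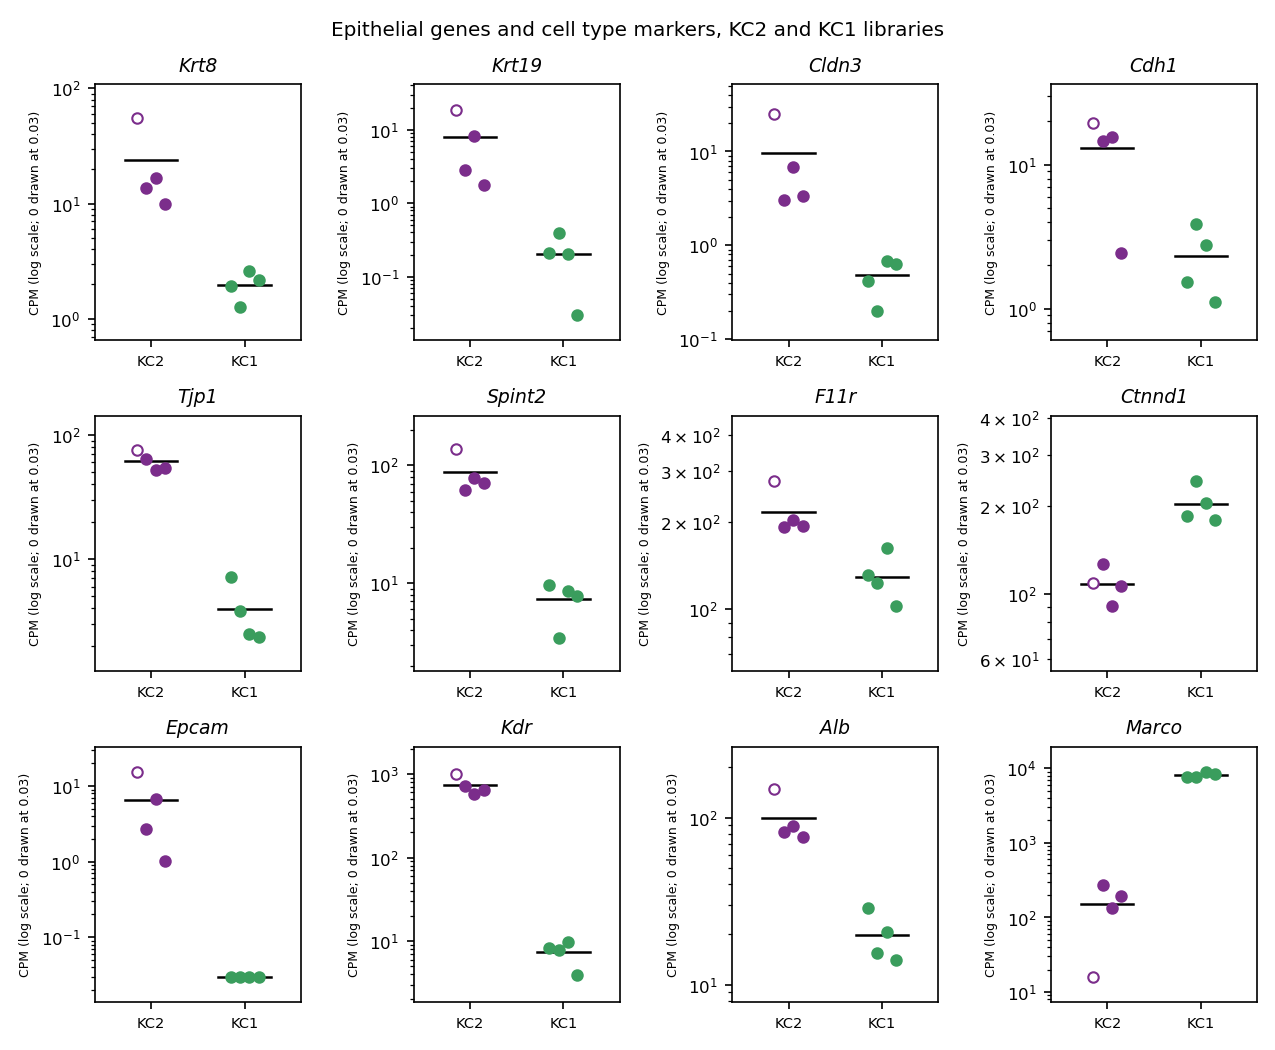
Levels of 8 members and 4 marker genes (CPM, log axis) in the KC2 and KC1 libraries; the open symbol is KC2 replicate 1 and lines are group means. Tjp1, Spint2 and Cldn3 are higher in all 4 KC2 than in all 4 KC1 libraries, Ctnnd1 is lower in KC2, and the marker genes Epcam, Kdr and Alb are higher and Marco lower in KC2.

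Keratins were low in both Kupffer groups but all 5 tested were higher in KC2. Krt8 measured 55.8, 13.7, 16.6 and 9.81 CPM in KC2 libraries, against 1.94, 1.25, 2.57 and 2.16 CPM in KC1 libraries (log2 fold change 3.62 ± 0.56, adjusted p = 0.000279). Without KC2 replicate 1, which alone held the highest value, the log2 fold change was 2.77. Krt19 measured 18.7, 2.80, 8.28 and 1.76 CPM in KC2 libraries, against 0.208, 0.396, 0.203 and 0 CPM in KC1 libraries (5.25 ± 0.93, adjusted p = 0.000652, and 4.36 without KC2 replicate 1). Krt80 was the exception in its pattern over libraries, at 13.8, 30.3, 19.4 and 31.1 CPM in KC2, against 4.57, 3.82, 4.19 and 2.64 CPM in KC1 (2.65 ± 0.30, adjusted p = 2.98e-05), with its lowest KC2 value in replicate 1. Krt7, at 3.27 ± 2.76 CPM in KC2 and 0.154 ± 0.229 CPM in KC1 (4.37 ± 0.98), gave 3.60 without KC2 replicate 1 and 5.98 without KC1 replicate 1. Krt18 overlapped between the groups, at 36.2, 6.07, 10.2 and 6.05 CPM in KC2 and 6.99, 1.45, 3.38 and 2.09 CPM in KC1, and its call (2.10 ± 0.67, adjusted p = 0.0196) was lost without KC2 replicate 1 (log2 fold change 1.12, adjusted p = 0.0579) and without KC1 replicate 2, 3 or 4 (adjusted p 0.0512 at the lowest).

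Claudins were almost unread in KC1. Cldn3, a barrier-forming claudin, measured 25.4, 3.04, 6.85 and 3.33 CPM in KC2 libraries, against 0.415, 0.198, 0.676 and 0.626 CPM in KC1 libraries (log2 fold change 4.34 ± 0.79, adjusted p = 0.000788, and 3.20 without KC2 replicate 1). Cldn7 measured 6.85, 1.11, 5.69 and 1.82 CPM in KC2, against 0.138, 0, 0 and 0.139 CPM in KC1 (5.69 ± 0.94, adjusted p = 0.000412). Cldn12 measured 5.31, 2.45, 2.71 and 4.48 CPM in KC2, against 0.485, 0, 0.0676 and 0 CPM in KC1 (4.71 ± 0.86), and its estimate became 6.97 without KC1 replicate 1. None of the 3 overlapped between the groups. Cldn1 had 3 counts over the KC1 libraries, with a count ratio of 56.4 (95% interval 19 to 276) for KC2 over KC1. Its fitted log2 fold change of 5.61 ± 0.72 became 6.57 without KC1 replicate 4. Cldn4, Cldn6 and Krt23 had no count in KC1 and were not tested. Cldn4 read 1.59, 0.876, 0.387 and 1.70 CPM in the KC2 libraries, at least 22.3-fold higher than in KC1. Cldn6 read 6.20, 1.52, 4.97 and 0 CPM in KC2, and Krt23 read 6.80, 0, 2.93 and 0.787 CPM, so in each 1 KC2 library was at 0 like KC1. Their bounds of at least 65.7-fold (Cldn6) and 55.3-fold (Krt23) became 43.9-fold and 25-fold without KC2 replicate 1.

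Of 8 tested scaffold, polarity and tight junction membrane genes other than claudins, 7 were higher in KC2. Tjp1 measured 75.4, 64.2, 52.7 and 54.2 CPM in KC2 libraries, against 7.13, 3.82, 2.5 and 2.36 CPM in KC1 libraries (log2 fold change 3.98 ± 0.33, adjusted p = 3.67e-06), with KC2 replicate 1 the highest library. Cgn averaged 4.88 ± 2.54 CPM in KC2 and 1.32 ± 0.650 CPM in KC1 (SD, n = 4 each), and Patj 1.89 ± 0.878 CPM in KC2 and 0.439 ± 0.279 CPM in KC1, both higher in KC2 (Patj not without KC1 replicate 3, adjusted p = 0.0516). F11r, which leukocytes as well as epithelia carry, measured 278, 193, 204 and 194 CPM in KC2, against 131, 123, 162 and 103 CPM in KC1 (0.76 ± 0.18, adjusted p = 0.00354). Lsr, Ocln and Marveld2 (tricellulin) were higher in KC2 by 1.81 ± 0.47, 4.33 ± 0.87 and 1.46 ± 0.41 in log2. Tjp3 missed the threshold, at 8.05 ± 2.86 CPM in KC2 and 4.48 ± 1.81 CPM in KC1 (adjusted p = 0.0726), and passed it without KC2 replicate 2 (adjusted p = 0.0478).

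The desmosome genes Pkp3, Jup and Dsg2 were higher in KC2. Pkp3 measured 19.4, 8.41, 9.55 and 7.26 CPM in KC2, against 0.623, 0.594, 0.811 and 0.417 CPM in KC1 (log2 fold change 4.19 ± 0.41, adjusted p = 1.2e-05). Jup was abundant in both, at 110.0, 119.7, 115 and 116 CPM in KC2 and 70.5, 91.7, 63.6 and 58.6 CPM in KC1 (0.71 ± 0.14, adjusted p = 0.00152). Dsg2 measured 3.77, 3.97, 2.98 and 1.27 CPM in KC2, against 0, 0, 0.270 and 0 CPM in KC1 (5.33 ± 0.92), and its estimate became 8.64 without KC1 replicate 3. E-cadherin (Cdh1) measured 19.5, 14.7, 15.5 and 2.42 CPM in KC2 and 1.52, 3.89, 2.77 and 1.11 CPM in KC1, with KC2 replicate 4 inside the KC1 range (2.5 ± 0.59, adjusted p = 0.00396).

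The matriptase system was higher in KC2 as a whole, though the filter on low counts fixed the direction of St14. Spint2 measured 138, 62.3, 77.4 and 71.3 CPM in KC2 libraries, against 9.69, 3.43, 8.59 and 7.79 CPM in KC1 libraries (log2 fold change 3.58 ± 0.35, adjusted p = 1.13e-05). Its relative Spint1 measured 12.7, 22.1, 8.95 and 4.54 CPM in KC2, against 3.05, 1.65, 1.83 and 4.45 CPM in KC1 (2.15 ± 0.49, adjusted p = 0.00328). Matriptase (St14) itself measured 9.28, 4.50, 3.65 and 1.51 CPM in KC2, against 0.485, 0.725, 0.0676 and 0 CPM in KC1 (3.87 ± 0.85, adjusted p = 0.00264, and 4.64 without KC1 replicate 2). Every KC2 library was above every KC1 library for all 3 genes. The connexin Gjb1 averaged 3.80 ± 2.67 CPM in KC2 and 0.849 ± 0.220 CPM in KC1 (2.18 ± 0.54, adjusted p = 0.00512), while Gjb2 was not tested, at 0.0869 ± 0.174 CPM in KC2 and 1.26 ± 0.863 CPM in KC1.

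Both members that were lower in KC2 came from outside the tight junction. Ctnnd1 measured 109, 127, 91.3 and 107 CPM in KC2, against 185, 243, 204 and 179 CPM in KC1, with no overlap (log2 fold change -0.89 ± 0.15, adjusted p = 0.000389). Ovol1, a transcriptional repressor of mesenchymal genes in epithelia, measured 0.844, 0.526, 0 and 0 CPM in KC2 and 3.11, 1.19, 1.55 and 1.6 CPM in KC1 (-2.37 ± 0.93, adjusted p = 0.0481), and leaving out any 1 of the KC1 libraries, or KC2 replicate 2, 3 or 4, ended that call (adjusted p 0.0676 to 0.138). Without KC2 replicate 1 the Ovol1 log2 fold change was -3.34. Ovol1 passed the filter on low counts through KC1 alone, which fixed its direction. Without KC2 replicate 1, 23 members were higher and 3 lower, with Gjb2 added to the lower and Krt18 lost from the higher. The other genes of the pathways divided by kind: 13 of 14 tested tight junction genes and 8 of 9 adherens junction genes were higher in KC2, against 2 of 13 polarity genes. Cldn5, the claudin of endothelial cells, averaged 831 ± 510.3 CPM in KC2 and 8.57 ± 5.44 CPM in KC1. The repressors Zeb1, Snai1, Snai2, Snai3 and Twist1 were higher too, with Zeb1 at 121 ± 7.17 CPM in KC2 and 7.96 ± 2.15 CPM in KC1, and Zeb2 was lower, at 82.2 ± 19.1 CPM in KC2 and 203 ± 30.5 CPM in KC1.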

How the data were processed

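RNA extracted with TRIzol was made into stranded polyA libraries, per the labels' protocols. The deposited values are expected counts per gene, which the authors made with RSEM, with HISAT and FastQC and the mm10 build also named, per the submitters' processing notes. No source used here gives their order, the annotation or the strand setting. The WT columns are identical in both early HCC tables and were used once.

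Expected counts were rounded to whole numbers, filtered by edgeR's filterByExpr, scaled by TMM and tested with edgeR 4.0.16 (R 4.3.3), whose quasi-likelihood test gave every adjusted p in the text (Benjamini-Hochberg over all genes, threshold 0.05) unless DESeq2 (1.42.0) is named. The SE is the absolute log2 fold change over the square root of F. Where a group had no count, folds are bounds against 3 counts over that group; with 1 to 3 counts, count ratios with 95% intervals that cover counting error only. Each comparison was fitted on its own groups. Replicates differed from each other by more than counting noise in every group. Gene positions and promoters came from RefSeq (GRCm38.p6), and lengths, the union of all exons of a gene, from GENCODE vM21 (GRCm38). Scripts were tested on simulated data.

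The members, lists and tests were chosen with earlier results of these data known. One cholangiocyte marker is not reported here and is in no sum or count of that list. Per-library values were given to members past the threshold, at least 2-fold and with groups that do not overlap (beyond 20 such, the 3 most abundant of each role); other members have group means, with library values where these are discussed. Alternatives tried were median-of-ratios scaling, DESeq2, no filter on low counts, a replicate block, 1 fit over 3 groups, and leaving out each library.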

Additional observations from a re-analysis of the deposited data

Results flagged for a closer look

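In 6 of the 54 groups of 4 Kupffer libraries examined, 1 library lay far from the others by Dixon's test at the 95% level, which chance alone gives in about 5% of groups. Of these, 4 fell on KC2 replicate 1: Krt8 at 55.8 CPM (the other KC2 libraries at 9.81 to 16.6 CPM), Krt18 at 36.2 CPM (6.05 to 10.2 CPM), Cldn3 at 25.4 CPM (3.04 to 6.85 CPM) and F11r at 278 CPM (193 to 204 CPM). In the same library the summed cholangiocyte markers were 763 CPM and the summed macrophage markers 1131 CPM, the highest and the lowest of the KC2 group, and their part in these values was not tested. In KC1, Cldn12 read 0.485 CPM in replicate 1 (the others 0 to 0.0676 CPM) and Dsg2 read 0.270 CPM in replicate 3 (the others 0 CPM), both a handful of reads.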

How the results depend on the processing

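The direction of every called member held under every alternative run. Sign changes touched uncalled values near 0: Pkp3 in KO against WT cells (leave-one-out range -0.00717 to 0.116) and Pkp2 in KO cells against normal liver (-0.0792 to 0.00438). Without the filter on low counts, 8 members were higher in WT cells than in normal liver, with Cldn4, St14 and Krt23 added. Leaving out 1 Kupffer library gave 1 to 3 members lower in KC2. DESeq2 dropped Ocln, Cldn23 and Pard3 in KO against WT cells, and Ovol1 in KC2 against KC1 was lost with no filter (adjusted p = 0.0719). Both DESeq2 and no filter put 32 members higher in KC2, with Crb3, Dsp, Esrp1, Grhl2, Cldn4, Cldn6, Ripk4 and Krt23 added. With a replicate block, 17 members were higher and 4 lower in KO against WT cells, 5 and 28 in WT cells against normal liver, 9 and 25 in KO cells against normal liver, and 24 and 2 in KC2 against KC1. With 1 fit over 3 groups, 18 were higher and 5 lower in KO against WT cells, with Spint2 and Cldn12 added as higher and Krt7 as lower. The same fit gave 7 and 28 in WT cells against normal liver, with Cldn4 and Krt23 added. The block added Cldn12 in KO against WT cells (adjusted p = 0.0439) and changed no other call. Same-numbered libraries correlated at -0.16 to 0.13 in their deviations from the group means. All correlated best with their own number only in KO against normal liver (6 of 6). With so few libraries this does not settle whether the numbers pair them, and the main fits used no replicate block. DESeq2 and no filter shifted the median of all genes in KC2 against KC1 to 0.24 and 0.21 on the log2 scale. Members under about 1 CPM rest on few reads. The labels do not say that replicates were separate animals.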
